A study of Mus musculus and Rattus norvegicus with 36 samples.

Results

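The genes described here encode NMDA and metabotropic glutamate receptors in oligodendrocyte precursor cells (OPCs), the proliferating glia that give rise to myelinating oligodendrocytes. They are 10 genes listed by name: the NMDA receptor subunits Grin1, Grin2a, Grin2b, Grin2c, Grin2d and Grin3a, and the metabotropic receptors Grm3, Grm4, Grm5 and Grm7. All 10 had 1 row in each of the 5 deposited gene tables, which keep 16263 to 26410 gene rows each. The 36 poly-A RNA-seq libraries fall into 12 groups of 3. Of these, 12 libraries come from mouse OPCs immunopanned from tissue labelled mPFC (medial prefrontal cortex) or Hippocampus and lysed on the plate. The knockout groups carry Pdgfralpha-CreER and Baf155-flox/flox, so CreER is expressed in cells with Pdgfra promoter activity. The control groups are littermates with Baf155-flox/flox and no Cre. The floxed alleles are therefore shared by all acute groups. The other 24 libraries are wild type OPC cultures kept 2 days in proliferation medium, then left untreated or given 200 uM GABA or 200 uM glutamate for 24 h. Mouse mPFC and mouse hippocampus cultures were each compared for GABA, and rat cortex cultures form 2 sets, 1 for GABA and 1 for glutamate, each with its own untreated group. The labels used here give no age, and they do not state whether the 3 libraries of a group stem from different animals or dishes. All p-values below therefore refer to library-to-library spread, which may be technical.

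NMDA receptors are glutamate-gated cation channels assembled from several subunits. GluN1, encoded by Grin1, binds the co-agonists glycine and D-serine and is needed in every conventional channel, whereas the GluN2 subunits bind glutamate and set the kinetics and the magnesium block. GluN3A, encoded by Grin3a, binds glycine and lowers calcium permeability and magnesium sensitivity when it joins a channel. Metabotropic receptors signal through G proteins: Grm5 (mGluR5) couples to Gq and phospholipase C, while Grm3, Grm4 and Grm7 couple to Gi and Go and lower cyclic AMP. OPCs receive synapses from neurons and are known to express NMDA receptors and Grm5.

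The feature of the pore that sets GluN3A apart can be read from the genes. The translated coding sequences of the 6 Grin genes were aligned with that of Grin1, and 1 aligned position had an asparagine codon in Grin1 and all 4 Grin2 genes and a glycine codon in Grin3a, of 6 positions with asparagine in the first 5. It lies in the pore loop, where the asparagine is known to contribute to magnesium block and calcium passage. The 30 coding bases around it are shown for 5 of the genes because Grin3a is the most abundant of these transcripts below. They are from GENCODE M21 on GRCm38, 5′ to 3′ on the coding (minus) strand, each within 1 exon. The capitals mark the aligned codon, which is AAC in the first 4 sequences shown and GGC in Grin3a.
Grin1, chr2:25297371-25297400, codon 637: ggcgtcctgctcAACtctggcattggggaa
Grin2a, chr16:9653546-9653575, codon 614: ggcctggtcttcAACaattctgtgcccgtc
Grin2c, chr11:115253848-115253877, codon 612: gcactggtcttcAACaactctgttcccatc
Grin2d, chr7:45854378-45854407, codon 639: gccctggtgttcAACaactccgtgccagtg
Grin3a, chr4:49770569-49770598, codon 729: gcccttctgtttGGCagaacagcagccatc

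Smarcc1, which encodes BAF155, averaged 3880.1 ± 57.2 normalized reads (SD, n = 3) in the control libraries labelled mPFC and 2465.1 ± 159.0 in the knockout. In the libraries labelled hippocampus it averaged 4462.2 ± 47.9 in the control and 1570.2 ± 60.5 in the knockout. Single libraries read 3814.1 to 4513.8 in the controls and 1510.2 to 2648.6 in the knockouts, without overlap. Depth ran from 14.8 to 22.1 M reads per library. In the acute libraries the 9 OPC markers summed to 197929.3 to 221159.5 and the 13 neuron markers to 2098.2 to 2792.6. There the 7 oligodendrocyte markers summed to 22948.5 to 30274.4 and the 8 astrocyte markers to 21009.4 to 30639.1. In untreated rat cultures the oligodendrocyte sum exceeded the OPC sum. It was 160835.1 to 166875.6 against 151894.2 to 154442.3 (GABA set) and 182205.1 to 184186.7 against 170491.3 to 171573.6 (glutamate set). It was also above with GABA, but not with glutamate. These sums do not measure cell numbers. No marker of any list was at 0 in all libraries of a group, and Slc17a7, which marks excitatory neurons, averaged 4.0 to 37.3 in the acute groups. In the acute controls the region labels ran against the regional transcription factors. Emx1 was 2.01 log2 units lower in hippocampus than in mPFC among controls, but 1.82 higher among knockouts and 1.85 higher in untreated cultures. Dlx1 was 2.61 higher among controls, against -2.30 in knockouts and -2.63 in cultures. Of 17 regional factors, 4 had the same sign of the hippocampus difference in controls as in knockouts and 5 the same as in cultures, while 12 had the same sign in knockouts and cultures. Every knockout result for 1 region is therefore also given after swapping the mPFC and hippocampus labels between the control groups (exchanged labels below), and the mean of both regional effects, which the exchange leaves unaltered, is given first. In addition, the library labelled mPFC knockout replicate 3 and the library labelled hippocampus control replicate 3 stood apart. Their squared differences from their group mates reached 13.5 times the sampling variance or more and 8.37 to 10.1 times, respectively, against 1.68 to 2.49 times for the other acute pairs. Knockout counts are given with and without both.

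Per length of transcript, and within each separately normalized table, Grin3a was the leading gene of the set in every mouse group. Divided by the kilobases of its protein-coding exons, it stood at 348.5 and 377.8 normalized reads per kb in the control groups labelled mPFC and hippocampus, and at 276.3 and 276.9 in the knockouts. In the untreated cultures it stood at 380.3 (mPFC) and 370.8 (hippocampus). Grm5 came second at 111.9 to 180.3 per kb over the 8 mouse groups and Grin1 next at 48.9 to 133.1, followed by Grm3 at 17.5 to 36.3. In the hippocampus controls, Grm5 and Grin1 overlapped between libraries and their order was not resolved. Grm4, Grm7 and the 4 Grin2 genes stayed at or below 15.6 per kb, and many neighbours among them overlapped. Grin2b is the gene most affected by this scaling, because its annotated exons span 24.8 kb. Unscaled, it averaged 356.3 in untreated hippocampus cultures, above Grin1 at 236.4. With GABA these were 264.3 and 263.5, and in the other mouse groups Grin2b was below Grin1. The low Grin2 shares given next therefore depend on the scaling. Per kb, Grm3 and Grin2b overlapped in the untreated hippocampus cultures. The rat genes were not scaled by length.

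**Figure D1:**
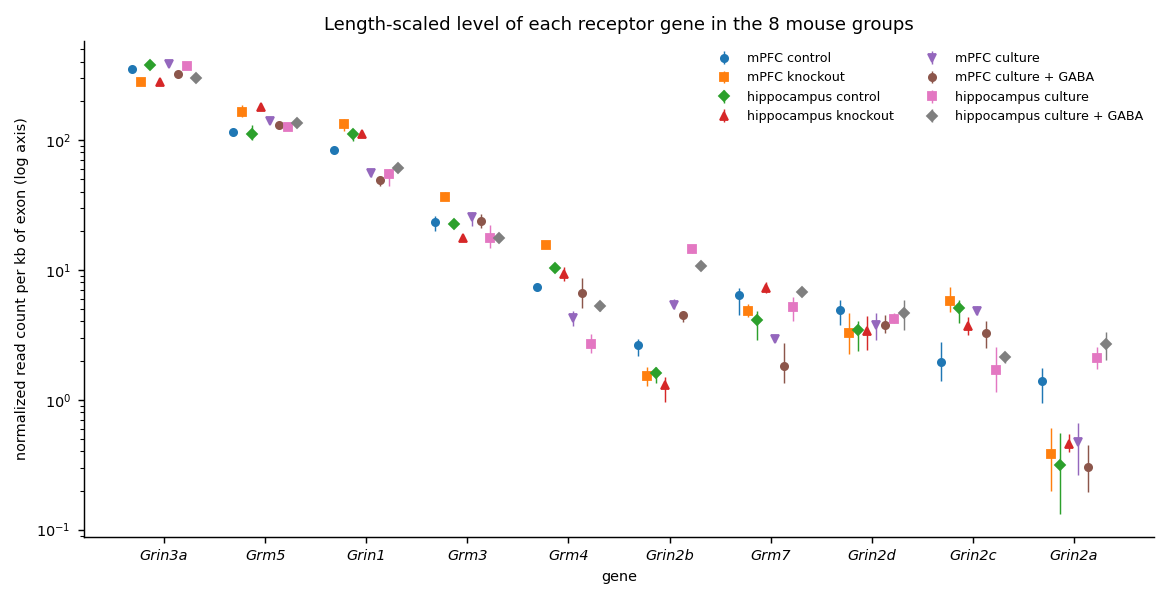
Level of each gene in normalized reads per kb of exon (log axis) in the 8 mouse groups; points are group means of 3 libraries and bars run from the lowest to the highest library. Grin3a lies between 276.3 and 380.3 in every group, above Grm5, Grin1 and Grm3, while Grin2a is lowest in 6 of the 8 groups.

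Of the summed level of the 6 Grin genes per kb, Grin3a held 75.8% ± 1.8 (SD, n = 3) in the hippocampus controls and 78.6% ± 0.1 in the mPFC controls. In untreated cultures the share was 84.4% ± 1.0 (mPFC) and 82.9% ± 2.4 (hippocampus). Grin1 held 19.0% and 22.1% in the 2 control groups, and the 4 Grin2 genes together held 1.9% to 3.4% in any acute library and 3.0% to 5.6% in any mouse culture library. In the knockouts the share of Grin3a was 65.7% ± 3.5 (mPFC) and 69.8% ± 0.3 (hippocampus), and no knockout library reached the lowest control library. The ratio of Grin3a to Grin1 per kb was 4.14 and 3.45 in the mPFC and hippocampus controls and 2.10 and 2.50 in the knockouts.

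Grin3a was lower, and Grm5 and Grin1 were higher, in knockouts than in controls as the mean of both regions. Of the 10 genes, 4 rose (Grin1, Grin2c, Grm4 and Grm5) and 2 fell (Grin2b and Grin3a), with limma on log2(value + 1) and a Benjamini-Hochberg adjusted p under 0.05. Over all 13985 genes tested, 54.4% passed in either direction, 26.9% higher and 27.5% lower, so the share of the receptor genes that passed is close to the background. The same count, 4 higher and 2 lower, was found without the 2 libraries that stood apart. The median difference of the 10 genes was 0.19 on the log2 scale, and that of all genes was near 0. Markers of several cell types moved with the knockout in the same mean: 7 of 8 tested astrocyte markers rose and 1 fell, 2 of 9 OPC markers rose and 6 fell, and 3 of 6 oligodendrocyte markers rose and 1 fell. Of 12 neuron markers 2 rose and 5 fell, of 9 microglia markers 2 rose and 4 fell, and of 7 endothelial and mural markers 2 rose and 1 fell. The OPC markers summed to 211298.3 to 212310.8 in the mPFC controls and 197929.3 to 213272.2 in the knockouts, and to 220798.1 to 221159.5 and 201419.6 to 205148.0 in hippocampus. The microglia markers summed to 413.5 to 419.9 and 496.8 to 540.1 in mPFC, and to 558.5 to 622.1 and 319.5 to 341.4 in hippocampus. The part of these cell types in the receptor values was not tested.

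Grin3a read 2611.9, 2624.0 and 2594.9 normalized reads in the mPFC controls and 1999.6, 2007.9 and 2201.8 in the mPFC knockouts. It read 2805.5, 2833.0 and 2851.5 in the hippocampus controls and 2070.1, 2024.1 and 2128.6 in the knockouts. Every knockout library lay below every control library, whatever its region label. The mean effect was -0.39 ± 0.03 log2 (SE, adjusted p = 1.084e-07 by limma), with -0.34 ± 0.05 for mPFC and -0.45 ± 0.05 for hippocampus. With exchanged control labels these became -0.45 and -0.33, and both still passed. The regional effects differed by -0.11 ± 0.06, which did not pass (adjusted p = 0.217 by limma).

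Grm5, the Gq-coupled receptor, read 950.5, 952.8 and 928.8 in the mPFC controls and 1216.7, 1255.3 and 1502.6 in the mPFC knockouts. It read 817.6, 858.2 and 1058.1 in the hippocampus controls and 1465.5, 1506.7 and 1433.2 in the knockouts. Again no knockout library overlapped any control library, here with the knockouts above; the highest value of the mPFC knockout and of the hippocampus control each came from the library that stood apart. The mean effect was 0.59 ± 0.06 (adjusted p = 1.922e-06 by limma), with 0.48 ± 0.09 in mPFC and 0.70 ± 0.09 in hippocampus. With exchanged labels they were 0.54 and 0.64. The difference between regions, 0.21 ± 0.13, did not pass, but it was 0.42 ± 0.06 (adjusted p = 1.032e-05 by limma) without the 2 libraries that stood apart.

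Grin1, the obligatory subunit, read 364.5, 370.8 and 368.1 in the mPFC controls and 599.0, 634.1 and 510.7 in the mPFC knockouts. In hippocampus it read 508.6, 508.0 and 428.2 in the controls and 477.0, 482.4 and 491.9 in the knockouts. The mPFC groups did not overlap, whereas the hippocampus knockouts lay inside the range of their controls. The mean effect was 0.33 ± 0.06 (adjusted p = 0.000252 by limma). As labelled, the effect was 0.65 ± 0.08 in mPFC and 0.01 ± 0.08 in hippocampus. With exchanged labels it was 0.27 ± 0.08 in mPFC and 0.39 ± 0.08 in hippocampus, and both passed. In GENCODE M21, 1103 bases of Grin1 exons are also covered by the antisense gene Grin1os, and no source used here says that strand was used in counting. The largest overlap with exons of another gene on the opposite strand was 421 bases for Grin2d, 286 for Grin2b, 260 for Grm7 and 91 for Grin2c.

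The Grin2 genes were near the low end of the measurable range, and several of their regional results change with the region labels. Grin2b, the subunit typical of immature neurons, averaged 65.9 ± 10.9 in the mPFC controls, 40.1 ± 5.8 in the hippocampus controls, 37.5 ± 6.4 in the mPFC knockouts and 31.9 ± 7.2 in the hippocampus knockouts. Its mean effect was -0.57 ± 0.15 (adjusted p = 0.00423 by limma). As labelled it fell in mPFC by 0.80 log2 units and did not pass in hippocampus at -0.34. With exchanged labels it was -0.10 in mPFC, which did not pass, and -1.03 in hippocampus, which did.

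Grin2c averaged 9.8 ± 3.8 in the mPFC controls and 28.8 ± 7.5 in the mPFC knockouts, and 25.4 ± 5.1 and 18.5 ± 3.0 in the hippocampus groups. The mean effect was 0.54 ± 0.20 (adjusted p = 0.0349 by limma). It no longer passed without the filter on low values (adjusted p = 0.0512), or when 1 of 6 libraries was left out: mPFC knockout 1, mPFC control 2 or 3, hippocampus control 1, or hippocampus knockout 4 or 5 (adjusted p = 0.0552 to 0.0929, all by limma). The regional effects of 1.499 ± 0.28 (mPFC) and -0.43 ± 0.28 (hippocampus) became 0.17 and 0.91 with exchanged labels, and only the latter passed. Grin2a, typical of mature neurons, read 22.2, 14.1 and 26.2 in the mPFC controls, and 2.0 to 9.1 in the other 9 acute libraries. It passed the filter only through the mPFC controls, so its fall in mPFC of -1.78 ± 0.46 gives no support to a difference; with exchanged labels it was 0.27 in mPFC and -1.45 in hippocampus. The mean effect, -0.59 ± 0.33, did not pass, except without hippocampus control 2 (-0.79, adjusted p = 0.0489 by limma). That call rests on the same filter and gives no support to a difference either. Slc17a7, the excitatory neuron marker, averaged 37.3 in the mPFC controls, 20.3 in the hippocampus knockouts, 9.7 in the hippocampus controls and 4.0 in the mPFC knockouts. The 13 neuron markers together were not highest in the mPFC controls. They summed to 2363.2 to 2464.4 there and to 2587.8 to 2792.6 in the hippocampus controls. In the knockouts they summed to 2428.7 to 2604.5 (mPFC) and 2098.2 to 2131.2 (hippocampus). Of 12 tested, 6 rose and 4 fell in the mPFC knockout. The part of neuron RNA in the Grin2a values was not tested. Grin2d, found mainly in interneurons among neurons, averaged 20.2 to 29.9 in the 4 groups and did not pass in either region or in the mean. Its mPFC difference passed without mPFC knockout 1 (-0.85, adjusted p = 0.0455 by limma).

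Among the Gi-coupled receptors, Grm4 rose in the mean of both regions by 0.46 ± 0.09 (adjusted p = 0.000706 by limma). It read 39.3 to 43.3 in the mPFC controls and 83.6 to 89.2 in the mPFC knockouts, with no overlap, against 54.8 to 62.1 and 45.6 to 58.3 in the hippocampus groups, which overlapped. The mPFC effect was 1.06 ± 0.13, and 0.60 ± 0.13 with exchanged labels. In hippocampus it was -0.14 ± 0.13 as labelled and 0.32 ± 0.13 exchanged, and neither passed (adjusted p = 0.403 and 0.0548 by limma).

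Grm3, which astrocytes also express strongly, moved in opposite directions in the 2 regions. It read 60.6 to 79.5 in the mPFC controls and 105.4 to 121.0 in the mPFC knockouts, and 66.2 to 71.4 in the hippocampus controls and 51.4 to 55.1 in the hippocampus knockouts. Neither pair of groups overlapped. The effect was 0.65 ± 0.12 in mPFC and -0.36 ± 0.12 in hippocampus, and 0.67 and -0.38 with exchanged labels, so the labels matter little here. The hippocampus fall was lost without the filter and when any of the 6 hippocampus libraries was left out (adjusted p = 0.0526 to 0.0889 by limma). The regional difference of -1.003 ± 0.18 passed (adjusted p = 0.00105 by limma), and it was -1.06 with exchanged labels. The 8 astrocyte markers moved with Grm3 in mPFC: they summed to 21204.1 to 21527.8 in the controls and 29581.3 to 30639.1 in the knockouts. In mPFC 7 of the 8 rose and 1 fell. In hippocampus they summed to 21009.4 to 21528.3 and 23295.7 to 23789.6, above the controls while Grm3 was below them, but 3 of the 8 rose, 3 fell and 2 did not pass. The part of astrocyte RNA in these values was not tested, and in bulk samples fewer cells of a type and less RNA per cell cannot be told apart. The 7 oligodendrocyte markers summed to 22948.5 to 24314.4 in the mPFC controls and 27138.4 to 29105.2 in the mPFC knockouts. In hippocampus they summed to 29130.6 to 30274.4 in the controls and 26355.7 to 26735.0 in the knockouts, where 2 of 6 tested rose and 2 fell.

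Grm7, a presynaptic receptor in neurons, averaged 27.2 ± 7.0 and 20.6 ± 2.4 in the mPFC control and knockout and 17.6 ± 4.5 and 31.0 ± 3.1 in the hippocampus groups. It rose in hippocampus by 0.81 ± 0.25 (adjusted p = 0.0164 by limma), but not with exchanged labels (0.21 ± 0.25). It also missed the threshold without hippocampus control 3 (0.59, adjusted p = 0.0668) and without hippocampus knockout 6 (0.73, adjusted p = 0.0608). The mean effect of 0.22 ± 0.17 did not pass.

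Counted per region as labelled, 5 genes rose and 3 fell in mPFC, where 47.4% of the genes tested passed, 24.1% higher and 23.2% lower. The 3 include Grin2a, which was tested only because of its level in the mPFC controls, and 2 are left without it. In hippocampus 2 rose and 2 fell, where 42.6% passed, 21.7% higher and 21% lower. With exchanged labels the counts were 4 and 1 in mPFC, where 38.8% of all genes passed, and 3 and 4 in hippocampus (3 and 3 without Grin2a), where 48.1% did. Without the 2 libraries that stood apart they were 5 and 3 in mPFC and 1 and 1 in hippocampus, where Grm3 and Grm7 no longer passed. Over all genes 57.2% then passed in mPFC and 57.3% in hippocampus.

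**Figure D2:**
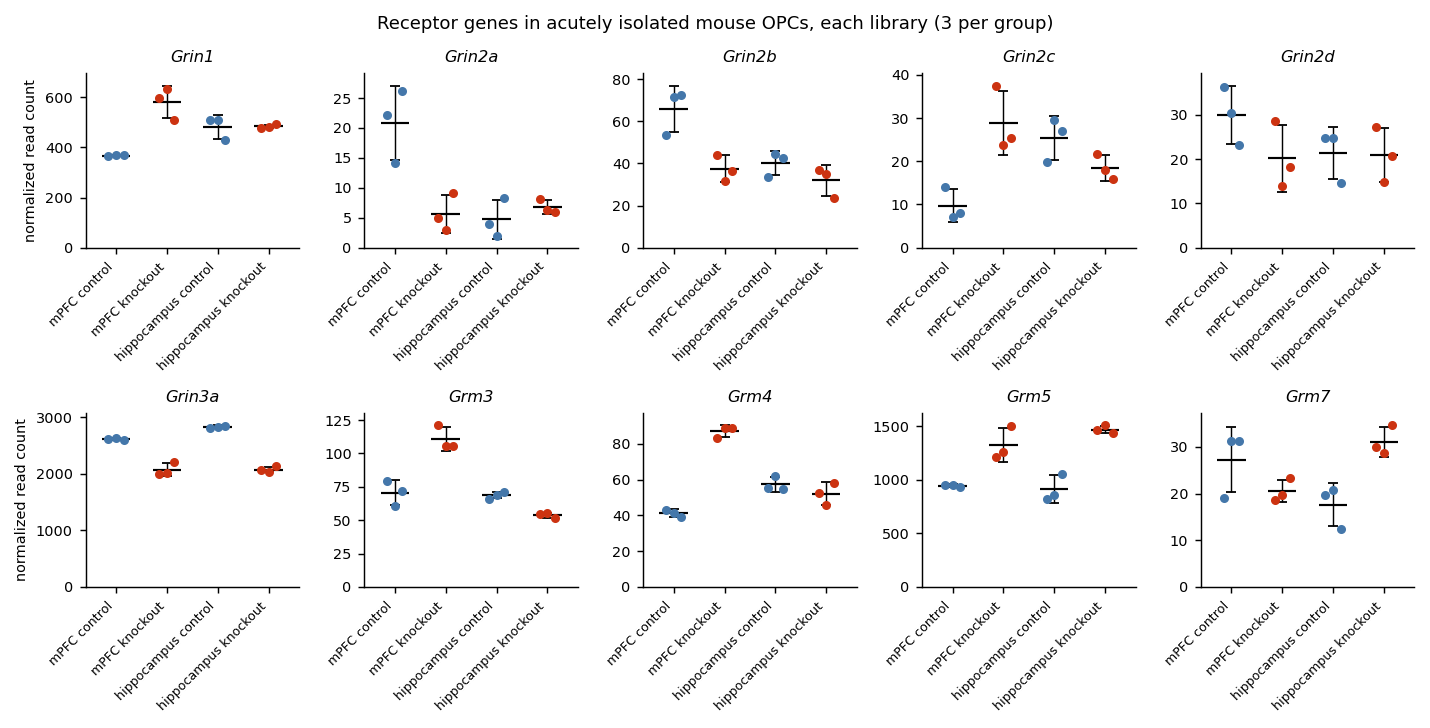
Normalized read count of each gene in each acute library (points, 3 per group, control in blue and knockout in red), with the mean and SD in black; panels have their own linear axes from 0. Grin3a is lower and Grm5 higher in all 6 knockout libraries than in all 6 controls, and each remaining gene except Grm3 overlaps between genotypes in at least 1 region as labelled.

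The hippocampus difference within a genotype shows how the receptor genes depend on these labels. Grin2a was 2.04 log2 units lower and Grin2c 1.33 higher in hippocampus than in mPFC among controls, while in untreated cultures Grin2a was 2.06 higher and Grin2c 1.48 lower. Of the 10 genes, 3 had the same sign in controls as in knockouts and 2 the same as in cultures, while 7 had the same sign in knockouts and cultures. For the 17 regional factors these counts were 4, 5 and 12. For 6 other genes of the receptor families they were 4, 5 and 5, without that pattern. Some of the signs are those of very small differences, as for Grin3a at 0.117 in controls, 0.004 in knockouts and -0.037 in cultures.

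The knockout moved genes around the receptors in both directions, beside 26.9% of all genes higher and 27.5% lower in the mean of both regions. Of 18 postsynaptic scaffold genes, 7 rose and 6 fell in the mean of both regions, with Shank2, a master scaffold, up by 0.45 ± 0.05 and Neto1, an auxiliary receptor protein, at -0.31 ± 0.05. Of 16 tested calcium and calmodulin genes, 6 rose and 3 fell. The calmodulin kinase subunits Camk2b (0.83 ± 0.04) and Camk2a (0.86 ± 0.08) rose, while the kinase Src, which phosphorylates NMDA receptors, changed by -0.35 ± 0.04. Of 11 tested Gq and phospholipase C genes, 6 rose and 1 fell, led by the calcium release channel Itpr1 at 0.82 ± 0.08 and the kinase Prkca at 0.33 ± 0.04. Of 15 genes for Gi, Go and adenylyl cyclase signaling, 6 rose and 3 fell: Adcy1 rose by 0.53 ± 0.04 and the synaptic adhesion gene Elfn1 changed by -0.39 ± 0.04. Of 9 tested genes from the list for synthesis, transport and breakdown of the co-agonists glycine and D-serine, 2 rose and 2 fell. Among them were Shmt1 at 0.82 ± 0.03 and Psat1 at -0.28 ± 0.04. All these examples passed (highest adjusted p = 0.000122, Neto1, by limma). The median differences of the 5 lists lay between 0.02 and 0.15. Grid1, a relative of these receptors, also fell (-0.24 ± 0.03, adjusted p = 2.535e-05 by limma).

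**Figure D3:**
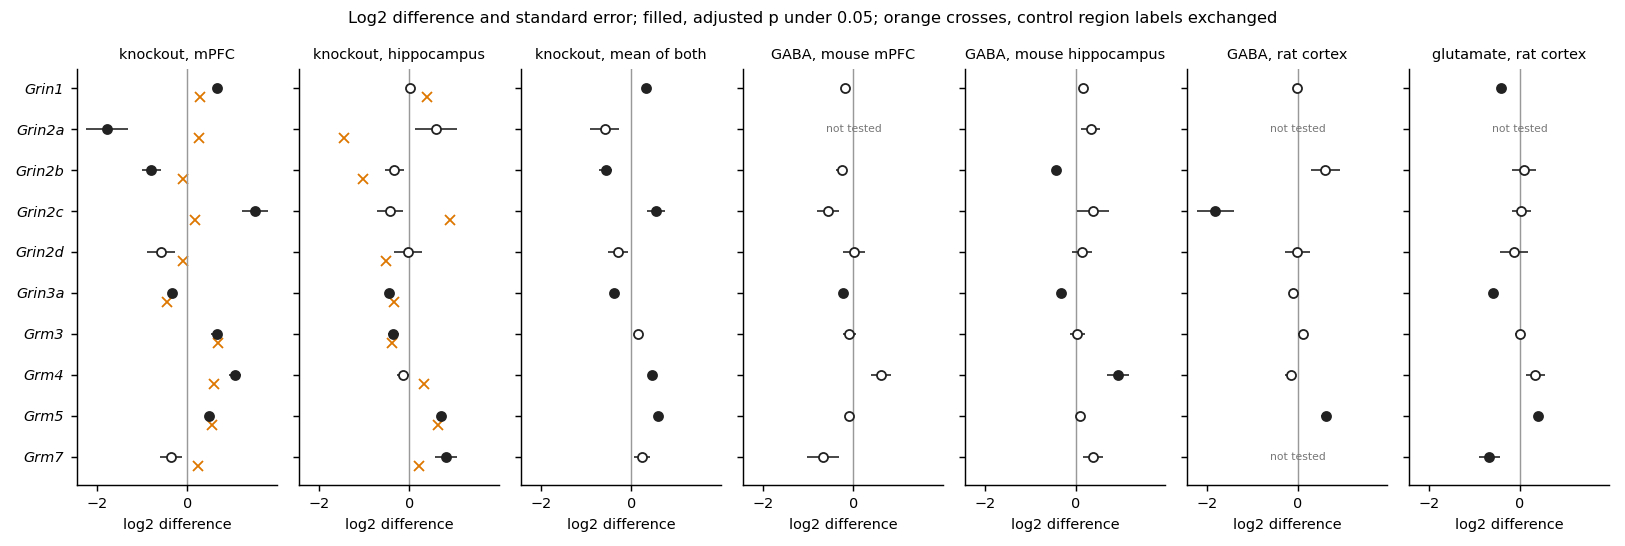
Log2 difference of each gene in 7 comparisons with its standard error; filled points have an adjusted p under 0.05 and orange crosses give the regional knockout effects with exchanged control labels. Grin3a lies left of 0 in all 7 comparisons, and the crosses lie farthest from their points for Grin2a and Grin2c.

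GABA lowered Grin3a in mouse cultures of both regions. In mPFC cultures Grin3a read 2817.1, 2877.3 and 2851.6 untreated and 2526.5, 2395.8 and 2350.0 with GABA. In hippocampus cultures it read 2700.2, 2721.7 and 2910.0 untreated and 2212.6, 2274.2 and 2195.5 with GABA. The groups did not overlap in either region, and the effects were -0.23 ± 0.04 (adjusted p = 0.00151) and -0.32 ± 0.04 (adjusted p = 9.497e-07, both by limma). The difference between the effects was -0.08 ± 0.05 and did not pass. The 9 OPC markers summed to 213160.8 to 217224.3 untreated and 209062.1 to 210245.2 with GABA in mPFC, where 1 rose and 1 fell. In hippocampus they summed to 207644.4 to 209792.3 and 201943.4 to 204491.2, where 3 rose and 3 fell. The 7 oligodendrocyte markers summed to 37417.5 to 38762.6 untreated and 33406.0 to 33794.7 with GABA in mPFC. In hippocampus they summed to 32980.2 to 34363.2 and 34176.3 to 34972.8, and the 9 microglia markers to 759.3 to 782.9 and 596.3 to 629.1. Their part in the receptor values was not tested.

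In mPFC cultures Grin3a was the 1 receptor gene of 9 tested that passed, where 6.55% of all genes tested passed, 3.18% higher and 3.36% lower. Unadjusted p was under 0.05 for 6 of the 9, beside 20.5% of all genes tested. The others of these were Grin1 (-0.19), Grin2b (-0.26), Grin2c (-0.56), Grm4 (0.61) and Grm5 (-0.10). Grm4 passed when GABA replicate 1, which differed more from its group mates than they did from each other, was left out (0.79, adjusted p = 0.0218 by limma). Grin2d (0.01 ± 0.24), Grm3 (-0.09 ± 0.14) and Grm7 (-0.67 ± 0.35) did not pass. In hippocampus cultures 1 gene rose and 2 fell, where 24.7% of all genes passed, 11.9% higher and 12.8% lower. Grin2b fell from 333.7, 356.8 and 378.4 to 247.0, 260.3 and 285.6, given in ascending order, an effect of -0.43 ± 0.08 (adjusted p = 0.000155 by limma). These are the highest Grin2b levels of the mouse groups, against 124.8 to 146.6 in the untreated mPFC cultures. Grm4 rose from 12.7 to 17.9 to 26.8 to 31.9, an effect of 0.94 ± 0.24 (adjusted p = 0.00493 by limma), and these ranges do not overlap. The other 7 genes did not pass: Grin1, Grin2a, Grin2c, Grin2d, Grm3, Grm5 and Grm7 differed by 0.04 (Grm3) to 0.38 (Grin2c and Grm7).

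No receptor gene passed for a difference between the GABA effects of the 2 mouse regions by limma, where 4.78% of all genes did, 2.6% higher and 2.19% lower. Unadjusted p was under 0.05 for 4 of the 10, beside 20.1% of all genes tested: Grin1 (0.36 ± 0.14), Grin2c (0.94 ± 0.42), Grm5 (0.19 ± 0.07) and Grm7 (1.06 ± 0.39). Grm7 passed when the mPFC culture with GABA numbered 3 was left out (1.35, adjusted p = 0.0329 by limma). The remaining differences were 0.86 ± 0.46 for Grin2a, -0.17 ± 0.13 for Grin2b, 0.13 ± 0.33 for Grin2d, 0.13 ± 0.22 for Grm3 and 0.33 ± 0.31 for Grm4. Grin2a averaged 7.1 ± 3.0 in untreated mPFC cultures and 31.4 ± 6.3 in untreated hippocampus cultures; it was not tested for GABA in the former because of its low level, with a mean of 4.6 after GABA.

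In rat cortex cultures Grm5 rose with GABA. Grm5 read 97.0, 106.8 and 81.3 untreated and 141.1, 149.0 and 148.0 with GABA, with no overlap and an effect of 0.62 ± 0.11 (adjusted p = 0.000101 by limma). Grin2c averaged 13.7 ± 2.1 untreated and 3.3 ± 1.5 with GABA, with no overlap, an effect of -1.81 ± 0.41 (adjusted p = 0.00105 by limma). It passed the filter only through the untreated libraries and was no longer tested when any of them was left out, so the group in which it is high decided that it was tested and its call gives no support to a difference. Of the other 7 receptor genes tested only Grm5 passed, where 23.7% of all genes passed, 11.9% higher and 11.8% lower.

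Grin3a averaged 577.4 ± 39.8 untreated and 536.4 ± 24.3 with GABA, with overlapping libraries, and did not pass (-0.10 ± 0.06). It passed when untreated replicate 3, its lowest untreated library, was left out (-0.16, adjusted p = 0.0484 by limma). Grin2b, at 14.4 ± 8.1 untreated and 20.9 ± 6.0 with GABA, passed only when untreated replicate 1 was left out (1.01, adjusted p = 0.0382 by limma). Grin1 (-0.01 ± 0.06), Grin2d (-0.01 ± 0.28), Grm3 (0.11 ± 0.10) and Grm4 (-0.16 ± 0.12) did not pass. Grin2a and Grm7 were below the filter and not tested, Grin2a at 4.3 untreated and 4.0 with GABA on average and Grm7 at 2.0 to 3.0 and 7.9 to 10.9. Other cell types moved with GABA in this set: the 9 microglia markers summed to 371.2 to 422.2 untreated and 938.2 to 999.4 with GABA, and the 7 oligodendrocyte markers to 160835.1 to 166875.6 and 196738.0 to 198428.1. The 6 endothelial and mural markers in the table, of which 2 were tested (1 rose and 1 fell), summed to 1559.5 to 1640.0 and 2280.9 to 2327.4. Their part in the Grm5 and Grin2c values was not tested.

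Glutamate lowered 3 receptor genes and raised 1 in the rat cultures, of 9 tested, where 28.3% of all genes passed, 14.2% lower and 14.1% higher. Grin3a read 849.8, 856.7 and 862.5 untreated and 553.2, 575.0 and 584.8 with glutamate, in ascending order. The gap between the groups was many times the spread within them, and the effect was -0.58 ± 0.05 (adjusted p = 9.1e-18 by limma). Grin1 read 343.5, 355.6 and 363.9 untreated and 244.9, 269.3 and 286.0 with glutamate, again without overlap, an effect of -0.41 ± 0.07 (adjusted p = 2.079e-06 by limma). Both NMDA subunits of highest level therefore fell together, while Grin2b, Grin2c and Grin2d, at 14.8 to 34.5 on average, differed by -0.12 to 0.10 and did not pass. Grin2a averaged 1.3 untreated and 3.3 with glutamate and was not tested.

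Grm5 rose with glutamate from 391.0, 412.2 and 441.3 to 530.7, 546.3 and 559.1, given in ascending order, an effect of 0.40 ± 0.06 (adjusted p = 3.057e-08 by limma). Grm7 averaged 32.9 ± 8.6 untreated and 20.1 ± 3.4 with glutamate, an effect of -0.67 ± 0.24 (adjusted p = 0.0254 by limma). That call was lost without the filter (adjusted p = 0.0621) and when untreated replicate 1 or 3 or glutamate replicate 1 or 2 was left out (adjusted p = 0.0512 to 0.205, all by limma). Grm3 and Grm4 did not pass, at 0.00 ± 0.10 and 0.35 ± 0.20. In this set the oligodendrocyte markers summed to 182205.1 to 184186.7 untreated and 145555.3 to 147278.5 with glutamate, the astrocyte markers to 38306.7 to 38574.4 and 45179.6 to 45574.4, and the OPC markers to 170491.3 to 171573.6 and 163068.4 to 164240.0. The endothelial and mural markers summed to 1281.6 to 1303.4 and 944.7 to 985.4 (2 tested, both fell), and the microglia markers to 46.5 to 56.3 and 74.7 to 83.3. Their part in the receptor values was not tested.

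The glutamate and GABA effects in rat, each taken within its own set, differed for 4 receptor genes, where 20.5% of all genes passed for the difference, 10% higher and 10.5% lower. Grin3a fell more with glutamate than with GABA (-0.48 ± 0.07, adjusted p = 8.407e-07), as did Grin1 (-0.40 ± 0.10, adjusted p = 0.00137, both by limma). Grin2c (1.85 ± 0.42) and Grm7 (-2.35 ± 0.46) also passed, but in the GABA set alone Grm7 lay below the filter and Grin2c met it only through the untreated libraries, which leaves Grin1 and Grin3a. Grin2b (-0.52 ± 0.43), Grin2d (-0.11 ± 0.42) and Grm3 (-0.11 ± 0.14) did not pass. Grm5, which rose in both sets, did not pass for a difference (-0.23 ± 0.12, adjusted p = 0.176 by limma), but did when GABA set untreated replicate 2 was left out (-0.31, adjusted p = 0.0422 by limma). Grm4 (0.50 ± 0.21) likewise passed only without glutamate set untreated replicate 2 (0.60, adjusted p = 0.0469 by limma). The untreated groups of the 2 sets were normalized apart and are given side by side only. Grm5 averaged 95.1 ± 12.8 in the GABA set and 414.8 ± 25.2 in the glutamate set, Grm4 108.1 ± 5.6 and 29.9 ± 4.1, Grm7 2.3 ± 0.6 and 32.9 ± 8.6, and Grin3a 577.4 ± 39.8 and 856.3 ± 6.4.

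**Figure D4:**
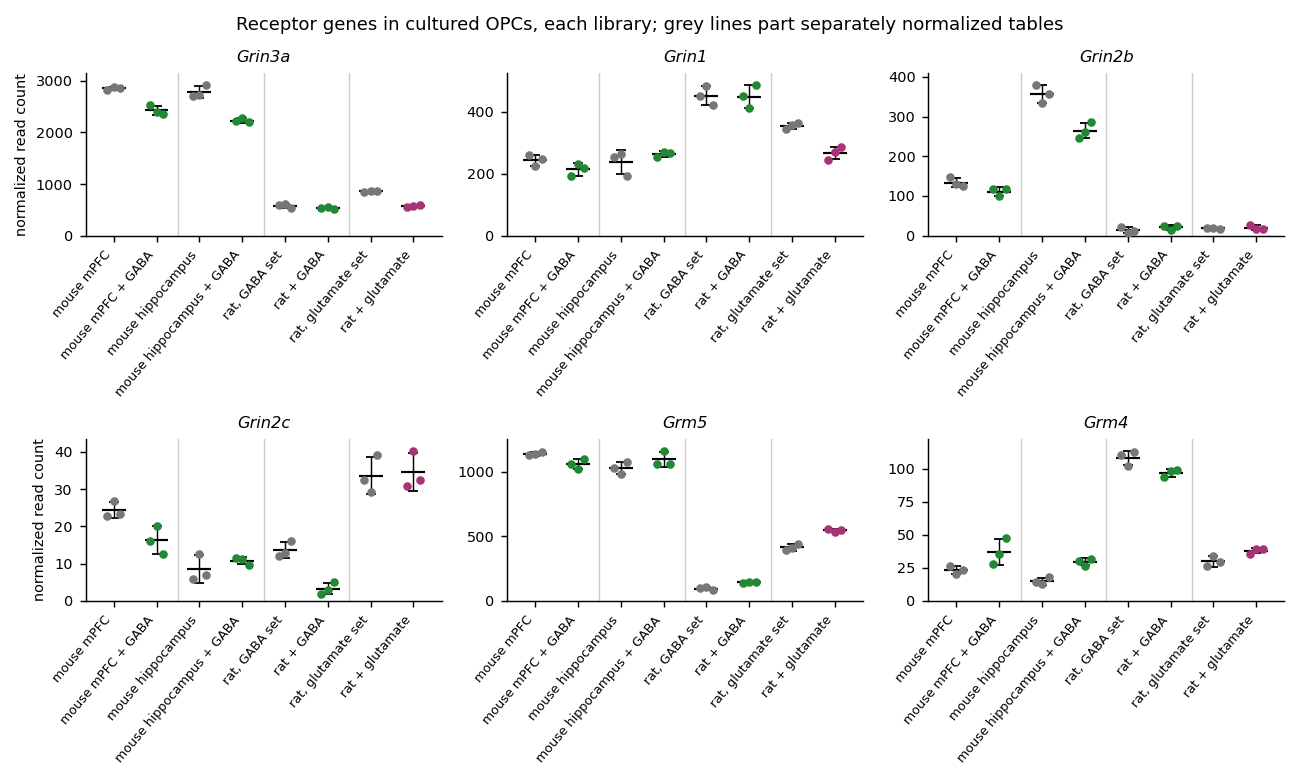
Normalized read count of 6 of the genes in each culture library (points, 3 per group, untreated in grey, GABA in green, glutamate in purple), with the mean and SD in black; grey lines part tables that were normalized separately. Grin3a is lower with GABA in both mouse sets and with glutamate in rat, and Grm5 is higher with either transmitter in rat.

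Around the receptors, several genes from the list for synthesis, transport and breakdown of the co-agonists rose in the cultures. The list mixes synthesis with uptake and breakdown, so its rises do not show that more co-agonist was supplied. Of 9 tested, 6 rose with GABA in mouse mPFC, 4 in mouse hippocampus and 5 in rat, 5 rose with glutamate in rat, and none fell in any of these 4 comparisons by limma. Over all genes 3.18%, 11.9%, 11.9% and 14.1% rose in the same order. At an unadjusted p under 0.05, 1 gene of the list was lower in each rat comparison and 0 in each mouse comparison. Phgdh, the first enzyme of serine synthesis, rose by 0.42 ± 0.04 in mouse mPFC, 0.34 ± 0.04 in mouse hippocampus, 0.22 ± 0.03 with GABA in rat and 0.24 ± 0.03 with glutamate. Slc6a9, the glycine transporter GlyT1, rose by 0.39 ± 0.05 with GABA and 0.69 ± 0.04 with glutamate in rat, and the serine transporter Slc1a4 by 0.41 ± 0.04 and 0.54 ± 0.04. The median differences of the list were 0.23, 0.12, 0.11 and 0.22 in the order of the 4 comparisons, beside medians of all genes near 0. The 2 comparisons in each species use separate untreated libraries.

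With glutamate in rat, where 14.2% of all genes fell and 14.1% rose, 6 of 12 tested Gq and phospholipase C genes fell and none rose by limma (1 higher at an unadjusted p under 0.05), with Itpr2 at -0.25 ± 0.02 and Plcb1 at -0.44 ± 0.06. With GABA in rat 4 of 13 rose and 2 fell, beside 11.9% and 11.8% of all genes, Prkca rising by 0.24 ± 0.04. The Src family kinase Fyn fell with glutamate (-0.35 ± 0.02) and Camk2b rose (0.50 ± 0.04), among 3 calcium and calmodulin genes that rose and 1 that fell of 11 tested. Of 18 scaffold genes 1 rose and 5 fell with glutamate, Dlgap4 by -0.32 ± 0.03 and Homer1, which links Grm5 to its effectors, by -0.20 ± 0.03. Of 13 tested Gi and Go genes 1 rose and 3 fell, Elfn2 by -0.30 ± 0.03. In mouse hippocampus cultures 5 scaffold genes rose with GABA and 3 fell, beside 11.9% and 12.8% of all genes, led by Shank3 (0.42 ± 0.06). In mouse mPFC none of 18 passed by limma, beside 6.55% of all genes. At an unadjusted p under 0.05, 4 were lower and 0 higher there, beside 20.5% of all genes in either direction.

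Grin2c and Grm4 varied most over the 12 group means, centred within each table, among the receptor genes tested in all tables. Grin2c counts as tested in the rat GABA set only through its untreated libraries, so its place here rests on the group in which it is high. Of 10710 genes tested in all 5 tables, those with the most similar pattern to Grin2c were Lrrc3 (Pearson r = 0.939), E2f4 (0.938) and Lars2 (0.936), and to Grm4 they were Arhgef40 (0.943), Trap1 (0.942) and Aif1l (0.942). These are descriptions over 12 means that share libraries between genes, without a test.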

How the data were processed

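The tables the authors deposited hold a signal, namely reads per gene scaled by a single factor in each library. A single read is worth 0.905 to 1.12 units, and every nonzero value is a whole multiple of the smallest step (tolerance 1e-06). HISAT, Bowtie2 and DESeq2 are named, without version or role, and GRCm38.p6 for mouse, per the submitters' processing notes. For rat, the sources used here name no build. Per the labels, libraries were poly-A selected and read as single 50-base reads. Values were compared as log2(value + 1) with limma 3.58.1 (trend) in R 4.3.3, each table fitted alone with group means as coefficients, on genes with at least 10 in at least 3 libraries. Differences between effects of 2 tables used joint fits on shared symbols. The test was checked on simulated data in which few genes changed and all libraries had the same noise. That check does not cover the acute libraries that stood apart, nor replicate 1 of the mouse mPFC cultures with GABA. The squared differences of that replicate from its group mates were 4.42 and 5.72 times the sampling variance. The other GABA pair of these cultures gave 2.32 times and their untreated pairs 1.22 to 1.49 times. Rises and falls are calls at a Benjamini-Hochberg adjusted p under 0.05 over all genes tested; the pseudocount of 1 understates changes of low genes. An exact permutation of 3 against 3 libraries cannot give a p below 0.1. The rule names all 10 receptor genes in every comparison, with some that did not pass given as a range, and from each list of related genes the 2 to 4 with the smallest p, not all of which are printed. The genes and lists were chosen with earlier results of these data known. The alternatives tried are given in the closing section. Titles number the hippocampus knockout replicates 4 to 6, and those numbers are used. The protocol speaks of cortex where the acute samples are labelled mPFC, and the sample label was used. Lengths and coordinates are from GENCODE M21 (GRCm38); codons were aligned with Biopython 1.88. Replicate numbers were not used as pairs in the main fits, and the closing section gives a fit with them as a block. A sequence and a related gene are not reported here.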

Additional observations from a re-analysis of the deposited data

Results flagged for a closer look

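The knockout effect differed between hippocampus and mPFC, by an interaction term in limma with an adjusted p under 0.05, for 6 receptor genes as labelled, where 24.4% of all genes tested passed. The difference, hippocampus minus mPFC in log2 units, was -0.64 for Grin1, 2.37 for Grin2a, -1.93 for Grin2c, -1.003 for Grm3, -1.20 for Grm4 and 1.17 for Grm7. It was 0.46 for Grin2b and 0.56 for Grin2d, which did not pass. After the mPFC and hippocampus labels of the controls were swapped, only Grm3 of these still passed (-1.06, adjusted p = 0.0016), and Grin2b passed at -0.93 (adjusted p = 0.0462). Over all genes 13.8% then passed. Grin2a passed the filter only through the mPFC controls and was not tested when any 1 of them was left out, so its term gives no support to a difference, and 5 other genes are left as labelled. Grm7 missed the threshold without mPFC knockout 1, hippocampus knockout 6 or mPFC control 2 or 3 (adjusted p = 0.0584 to 0.0673 by limma).

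The glutamate effect differed from the GABA effect in the rat cultures for 4 receptor genes, where 20.5% of all genes tested passed. The difference, glutamate minus GABA in log2 units, was -0.40 for Grin1, 1.85 for Grin2c, -0.48 for Grin3a and -2.35 for Grm7. In the GABA set alone Grm7 lay below the filter and Grin2c met it only through the untreated libraries, so the difference rests on Grin1 and Grin3a. The sets have their own untreated libraries and were normalized separately, so the transmitter and the set cannot be told apart.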

How the results depend on the processing

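Exchanging the region labels of the acute control groups moved the number of receptor genes that passed from 8 to 5 in mPFC, from 4 to 7 in hippocampus and from 6 to 2 for the regional difference, whose count over all genes moved from 3415 to 1929. These counts include Grin2a, which passed the filter only through the mPFC controls, so its calls give no support to a difference. Without Grin2a, 5 rose and 2 fell in mPFC as labelled, and 4 and 1 after the exchange. In hippocampus these counts were 2 and 2, then 3 and 3. For the regional difference they were 1 and 4, then 0 and 2. The exchange reversed Grin2a in mPFC (0.27) and in hippocampus (-1.45) and Grin2c in hippocampus (0.91). It also reversed the regional difference of Grin1 (0.12), Grin2a (-1.72), Grin2b (-0.93), Grin2c (0.74) and Grm7 (-0.0282). The cause of the label pattern was not tested. Without the filter, 641 genes in place of 975 passed for GABA in mouse mPFC. Pseudocounts of 0.1 and 10 and median-of-ratios rescaling moved no count of genes or receptor genes by over 1.5 times. Neither did fitting only the groups of a contrast. With a pseudocount of 10 Grin2a passed as lower in the mean of both regions (adjusted p = 0.0422 by limma). Because Grin2a was tested only through the mPFC controls, that call gives no support to a fall. Leaving out 1 library, or both acute libraries that stood apart, gave the following ranges. For the knockout in hippocampus 4624 to 7972 genes and 2 to 3 receptor genes passed. The regional knockout difference gave 2421 to 6990 genes and 4 to 7 receptor genes. GABA gave 418 to 1820 genes and 1 to 2 receptor genes in mouse mPFC, and 2357 to 4300 genes in mouse hippocampus. In rat GABA gave 2091 to 3113 genes and 1 to 2 receptor genes. The difference between the mouse GABA effects gave 269 to 1278 genes and 0 to 1 receptor genes. Of these, 5283 genes passed for the regional difference without mPFC knockout 3 alone and 6990 without both. For GABA in mouse mPFC 418 to 448 passed without any 1 untreated library and 1820 without GABA replicate 1, and in mouse hippocampus 2357 without GABA replicate 2. For the difference between the mouse GABA effects 269 to 483 passed without any 1 of 9 libraries, but 1278 without mPFC GABA 2 and 1116 without hippocampus untreated 1. The alternative without both acute libraries was added after seeing the data. With the replicate number as a block, 8, 4 and 6 receptor genes passed in mPFC, hippocampus and their mean. Over all 13985 genes tested, 7069, 6429 and 7975 passed in the same order. The 8 include Grin2a, which was tested only through the mPFC controls. No count moved by over 1.5 times. Deviations of same-numbered acute libraries correlated at -0.046 to 0.249, against -0.162 to 0.11 for acute libraries with other numbers. The value of 0.249 was that of mPFC knockout 3 with hippocampus control 3, both acute libraries that stood apart. In the cultures same-numbered libraries correlated at 0.027 at most. Whether same-numbered acute libraries share a batch was not tested. The planned count tests (edgeR, DESeq2) were not run, because whole reads could not be recovered in the accepted form for columns whose step lies close to 1. Depth limits Grin2a, Grin2c, Grin2d and Grm7, whose group means were at most 40.0 reads.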
